A study of Mus musculus with 2 samples.

Results

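The killer lectin-like receptors are C-type lectin-like surface receptors through which natural killer (NK) cells, innate lymphoid cells (ILCs) and some T cells read ligands on other cells. The 10 genes described here are Klra1, Klra6, Klra7, Klrb1b, Klrb1c, Klrc1, Klrc2, Klrd1, Klre1 and Klrk1. They were fixed by name, with earlier results of these data known. They were taken from 32228 measured genes, of which 27 carry a Klr name. They were measured by single-cell RNA-seq of CD45+ 7-AAD- colonic lamina propria cells of C57BL/6 mice aged 8 to 10 weeks, in which colitis had been induced with dextran sulfate sodium (DSS). There was 1 library of pooled WT mice and 1 of pooled Ring1AKO mice, which lack the Polycomb protein Ring1a (gene Ring1), so both groups share the DSS treatment and differ in the labelled genotype. With 1 library per group there was no replicate, no test between the groups was possible, and the genotype cannot be told apart from any batch of its library.

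Activating and inhibitory receptors of this family are often carried by the same cell, and its response depends on which of them are engaged. Klrk1 (NKG2D) is activating, binds the stress ligands of the Rae1, H60 and Mult1 families and signals through the adaptors DAP10 (Hcst) and DAP12 (Tyrobp). Klrb1c is the activating receptor NK1.1 of C57BL/6 mice, and Klrb1b is an inhibitory receptor of the same NKR-P1 family that binds Clr-b, the product of Clec2d. Klrc1 (NKG2A, inhibitory) and Klrc2 (NKG2C, activating) each pair with Klrd1 (CD94) to bind Qa-1 (H2-T23). Klra1, Klra6 and Klra7 encode the inhibitory Ly49 receptors Ly49A, Ly49F and Ly49G, which bind class I MHC molecules and are switched on gene by gene, so that neighbouring cells carry different sets. Klre1 forms receptors with Klri1 or Klri2 and, like Klrd1, was counted as a partner chain, in neither the activating nor the inhibitory sum.

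All 10 genes lie on chromosome 6 of GRCm38, between 128778485 and 130386874 (GENCODE vM21), a stretch of 1.608 Mb. The 3 Ly49 genes among them lie between 130013033 and 130386874, with other Klra genes between them, such as Klra4 and Klra3. The next sequences are the 250 bases before the RefSeq start of the 3 activating receptors and of 2 of the 3 Ly49 genes, Klra6 and Klra7, which were chosen because the former were found in most NK/ILC1 cells and the latter were highest in another class. They are written 5′ to 3′ on the strand of the gene (GRCm38.p6), with the Runx core TGTGGT, or ACCACA where it lies on the other strand, in capitals.
Klrk1, chr6:129623865-129624114, minus strand: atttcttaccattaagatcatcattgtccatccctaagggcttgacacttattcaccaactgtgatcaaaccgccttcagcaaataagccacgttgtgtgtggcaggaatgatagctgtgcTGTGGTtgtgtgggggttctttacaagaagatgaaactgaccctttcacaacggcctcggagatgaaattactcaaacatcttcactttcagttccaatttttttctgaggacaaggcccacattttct
Klrb1c, chr6:128788642-128788891, minus strand: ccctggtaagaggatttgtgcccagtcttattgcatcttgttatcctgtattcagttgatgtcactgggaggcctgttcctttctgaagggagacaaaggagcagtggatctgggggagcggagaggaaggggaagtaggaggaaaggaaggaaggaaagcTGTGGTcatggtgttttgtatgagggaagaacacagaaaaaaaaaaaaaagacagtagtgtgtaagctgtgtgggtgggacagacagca
Klrc2, chr6:129660597-129660846, minus strand: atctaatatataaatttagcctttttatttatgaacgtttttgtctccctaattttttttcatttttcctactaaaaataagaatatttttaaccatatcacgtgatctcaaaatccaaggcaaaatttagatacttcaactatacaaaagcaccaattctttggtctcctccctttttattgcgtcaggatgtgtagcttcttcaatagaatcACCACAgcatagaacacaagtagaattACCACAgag
Klra6, chr6:130026955-130027204, minus strand: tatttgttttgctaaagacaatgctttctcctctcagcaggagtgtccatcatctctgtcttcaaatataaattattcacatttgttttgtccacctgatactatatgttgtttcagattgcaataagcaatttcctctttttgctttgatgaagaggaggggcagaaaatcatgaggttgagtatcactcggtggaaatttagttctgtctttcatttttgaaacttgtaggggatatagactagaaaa
Klra7, chr6:130233323-130233572, minus strand: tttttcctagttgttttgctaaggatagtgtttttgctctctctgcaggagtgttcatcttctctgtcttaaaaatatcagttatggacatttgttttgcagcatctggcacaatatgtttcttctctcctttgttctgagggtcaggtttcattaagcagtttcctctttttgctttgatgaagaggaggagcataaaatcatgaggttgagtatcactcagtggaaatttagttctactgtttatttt
The Klra6 and Klra7 stretches were 67.9% identical when aligned to each other. Of the 9 members with a RefSeq promoter, 6 held the Runx core on either strand, and Klrc2 held it at 2 places. It was absent from the windows of Klra6, Klra7 and Klrb1b. The third Ly49 gene, Klra1, also highest in that other class but not printed, and the inhibitory Klrc1 each held the core at 1 place. The core was thus not confined to activating members. Among all 27025 promoters of this length, 14.2% held it, as did 2 of 15 promoters of the other Klr genes. A match is a string of letters and was not tested as a binding site. Klrd1 was not among the promoters used.

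A total of 6005 barcodes of the library labelled WT and 7918 of that labelled Ring1AKO were kept, with at least 1000 UMIs, at least 500 genes and less than 5% mitochondrial UMIs. Their median UMIs were 6354 and 5035, and 11 barcode sequences occurred in both libraries. The libraries differed in their make-up, with 18.6% and 41.9% of kept barcodes gated as B cells. Ring1 (ENSMUSG00000024325) had 828 and 816 UMIs in all kept barcodes, or 13.4 and 11.8 CPM (counts per 1000000 UMIs), a log2 ratio of Ring1AKO over WT of -0.18 (-0.32 to -0.04, counting error only). A 3′ tag outside the deleted part checks nothing, and the deleted part is not given in the sources used here, so the genotypes rest on the labels.

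Members were described in 7 classes gated on marker genes, none of them a Klr gene. NK/ILC1 held 122 and 90 cells, CD7 innate-like 254 and 338, CD8 T 285 and 270, γδ T 64 and 106, ILC2 154 and 93, ILC3 65 and 74, and Treg 211 and 218, here and below with the library labelled WT first. Together they were 19.2% and 15.02% of the kept barcodes, and their median UMIs lay between 4592 and 6783.5. The CD7 innate-like class was gated on Cd3, Cd7 and Fcer1g without Cd4, Cd8b1 or Foxp3. It carried the T-cell receptor gene Trac in 85.4% and 90.8% of its cells. Cells with Trdc and without Trac had been taken as γδ T before this gate, which raises that share. Ncr1 (NKp46), which defines NK cells and some ILCs, was found in 1.57% and 1.78% of this class. In NK/ILC1, whose gate uses Ncr1 as a marker, it was found in 69.7% and 56.7%. The cells gated as CD7 innate-like are called T cells here because their gate requires Cd3, and these shares are in part set by the gates. A gate without Cd3, as first planned, held 22 and 28 cells. The γδ T class was mixed. Cells with both Cd7 and Fcer1g made up 25 and 49 of it, and it was spread over cluster 26, which also held 68.9% and 71.3% of the CD7 innate-like class, with 48.4% and 32.1%, and cluster 35, with 25.0% and 38.7%.

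A level is the share of all UMIs in a class that a gene took, as CPM, given with its exact 95% Poisson interval. A ratio is the log2 of a level in Ring1AKO over its level in WT, after 1 UMI was added on both sides, given with its exact interval. Intervals cover counting error only and treat each UMI as independent. They are too narrow where the UMIs of a gene lie in few cells, and too narrow for differences between animals. A lower sum in a class can mean fewer cells carrying a gene or less RNA in each, which cannot be told apart from the sum alone. UMIs count transcript ends, so levels of different genes do not scale with their lengths. B cells, which should lack these receptors, give the background in the same droplets at median depths of 4205.5 and 4331 UMIs.

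Among the activating receptors, Klrk1 was the broadest. Its level in NK/ILC1 was 538 CPM (486 to 594) and 673 CPM (607 to 745), and 86.1% and 94.4% of these cells had a UMI. ILC3 followed with 408 CPM (350 to 473) and 494 CPM (436 to 558). Then came γδ T with 242 and 277 CPM, CD7 innate-like with 132 and 153 CPM, CD8 T with 68.5 and 94.0 CPM and ILC2 with 47.4 and 71.7 CPM. The order of these classes was the same in both libraries, and each neighbour in it differed beyond counting error except CD8 T and ILC2. Treg had 8.48 and 8.70 CPM against 7.37 and 4.18 CPM in B cells, a log2 ratio of 0.29 (-0.85 to 1.15) in the library labelled WT and of 1.12 (0.20 to 1.84) for Ring1AKO.

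Klrb1c (NK1.1) was far more restricted. NK/ILC1 had 297 CPM (258 to 339) and 266 CPM (225 to 312), with a UMI in 73.0% and 65.6% of cells. The next class, γδ T, had 58.1 and 43.7 CPM, and did not differ beyond counting error from ILC3 (32.4 and 32.1 CPM). CD7 innate-like cells had 29.97 and 35.7 CPM, in 13.0% and 15.1% of cells. In CD8 T, ILC2 and Treg the level was between 2.24 and 6.67 CPM, against 1.01 and 1.55 CPM in B cells.

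Klrc2 was also highest in NK/ILC1, at 352 CPM (310 to 398) and 275 CPM (233 to 322) and lowest in ILC2 and Treg, at 4.48 to 11.8 CPM. The T cell classes lay between these ends. CD8 T had 93.9 and 78.4 CPM, CD7 innate-like had 77.1 and 63.8 CPM, and γδ T had 157 and 55.4 CPM. ILC3 had 51.0 and 17.0 CPM, from 22 and 9 UMIs.

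**Figure D1:**
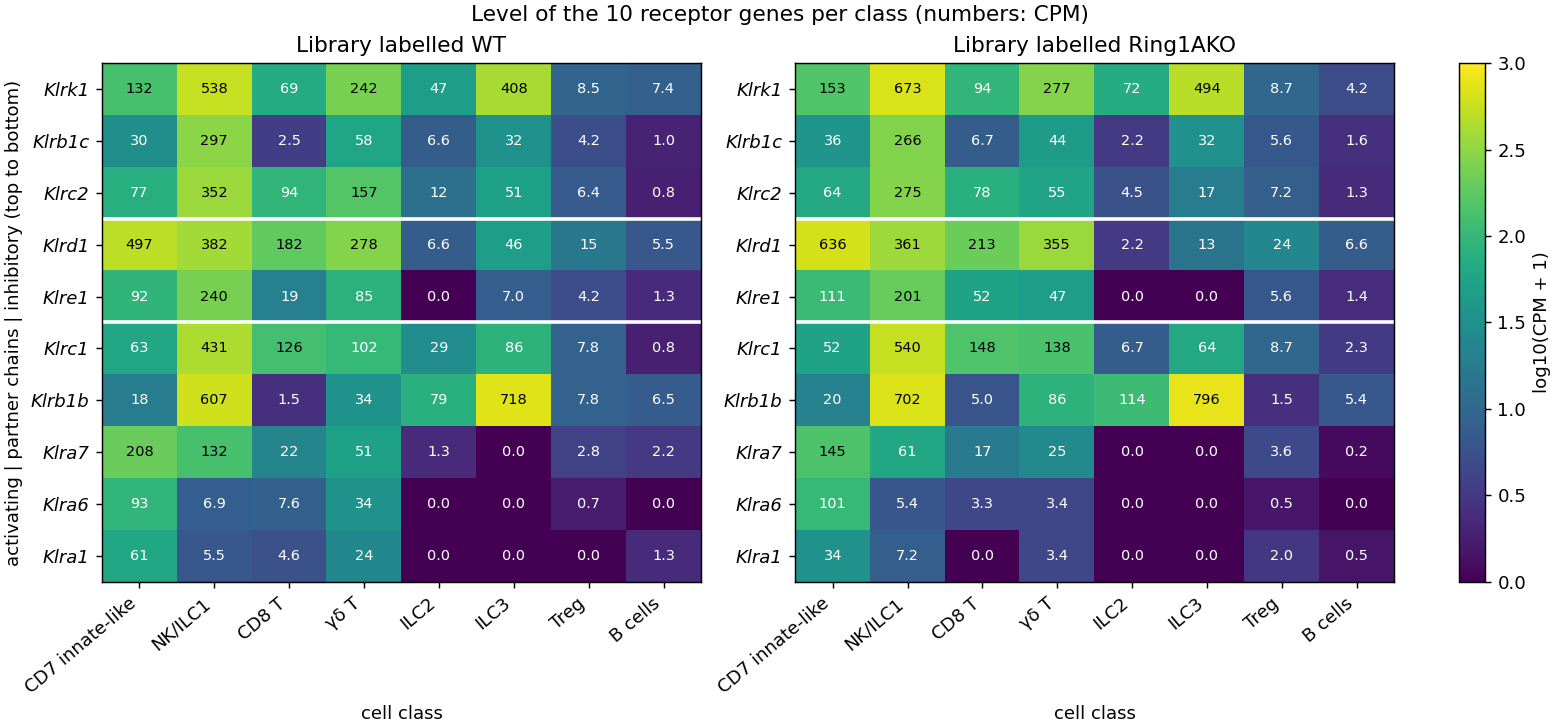
Level of each of the 10 members (rows) in the 7 classes and in B cells (columns), with 1 panel for the library labelled WT and 1 for that labelled Ring1AKO. CPM is printed in each cell and coloured on a log10 scale of CPM + 1, brighter for higher levels. Klrb1b is brightest in ILC3 (718 and 796 CPM) and NK/ILC1 (607 and 702 CPM), and Klrd1 in CD7 innate-like cells (497 and 636 CPM).

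The partner chain Klrd1 was the most abundant member in CD7 innate-like cells. Its level there was 497 CPM (465 to 531) and 636 CPM (603 to 669), and 216 of 254 and 295 of 338 cells had a UMI, or 38.2% and 41.4% when each cell was thinned to 1000 UMIs. NK/ILC1 had 382 CPM (339 to 430) and 361 CPM (313 to 414). γδ T had 278 and 355 CPM, which in the library labelled Ring1AKO did not differ beyond counting error from NK/ILC1, and CD8 T had 182 and 213 CPM. Klrd1 was therefore high in each of the T cell classes but Treg, where it was 14.8 and 23.5 CPM. ILC2 had 5 and 1 UMIs and ILC3 20 and 7 UMIs, so the ILC3 cells with Klrk1 carried little CD94. In B cells 1.53% and 2.17% had a UMI of Klrd1.

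Klre1 was highest in NK/ILC1, at 240 CPM (206 to 279) and 201 CPM (166 to 242). CD7 innate-like cells had 91.6 and 111 CPM and γδ T 84.7 and 47.0 CPM. CD8 T had 19.3 CPM (13.7 to 26.5) and 52.3 CPM (42.2 to 64.0). No UMI was found in ILC2 of either library, which allows up to 3.95 and 6.72 CPM (here and for other counts of 0, a limit of 3 counts rather than the Poisson bound), and 3 and 0 UMIs were found in ILC3. Klri2, which encodes one of its partners, was found at 123 and 126 CPM in NK/ILC1 and at 11.1 and 12.3 CPM in CD7 innate-like cells.

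The inhibitory members divided the classes between them. Klrb1b was the most abundant member of both NK/ILC1 and ILC3. Its level in ILC3 was 718 CPM (641 to 803) and 796 CPM (722 to 876), in 89.2% and 95.9% of cells, and in NK/ILC1 607 CPM (552 to 667) and 702 CPM (634 to 775), in 80.3% and 83.3%. ILC2 came next with 78.9 and 114 CPM. It was low in the T cell classes, with 33.9 and 85.7 CPM in γδ T, 17.8 and 20.3 CPM in CD7 innate-like cells and 1.52 and 5.01 CPM in CD8 T, the last against 6.53 and 5.44 CPM in B cells. In the γδ T class all 14 UMIs of the library labelled WT lay in 5 cells, and 66.7% of the 51 UMIs of that labelled Ring1AKO lay in the 5 cells with most.

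Klrc1 (NKG2A) was highest in NK/ILC1, at 431 CPM (384 to 481) and 540 CPM (481 to 605), with a UMI in 64.8% and 67.8% of cells. CD8 T followed with 126 CPM (111 to 143) and 148 CPM (131 to 167), in 35.8% and 38.1% of cells, and did not differ beyond counting error from γδ T (102 and 138 CPM). It was thus the main inhibitory member of CD8 T. ILC3 had 85.7 and 64.2 CPM and CD7 innate-like cells 62.7 and 52.4 CPM. Counts of Klrc1 and Klrc2 are uncertain where reads fall on shared sequence, since 32.6% of the 90-base words in the last 500 bases of Klrc1 also occur in Klrc2. For Klra7 the share was 10.2%, with the pseudogene Klra13-ps, and for the other 8 members it was 0.

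The listed Ly49 genes gave most of the UMIs of the inhibitory members in CD7 innate-like cells, 81.8% and 79.4%. Klra7 had 208 CPM (187 to 230) and 145 CPM (130 to 161) there, in 35.4% and 29.0% of cells, and 132 CPM (107 to 162) and 61.0 CPM (42.3 to 85.3) in NK/ILC1, in 19.7% and 13.3%. Klra6 had 93.2 CPM (79.7 to 108) and 101 CPM (88.6 to 115) in CD7 innate-like cells but 6.90 and 5.39 CPM in NK/ILC1. Klra1 had 61.0 CPM (50.2 to 73.6) and 33.9 CPM (26.8 to 42.4) in CD7 innate-like cells and 5.52 and 7.18 CPM in NK/ILC1. CD7 innate-like cells thus held 82.7% and 88.5% of the Klra1 UMIs of the 7 classes and 82.8% and 95.04% of those of Klra6. The 7 classes themselves held 64.3% and 59.2% of the Klra1 UMIs of all kept barcodes. For Klra6 they held 74.6% and 80.4%, so the rest lay outside the classes. No UMI of any of the 3 genes was found in ILC3, which allows up to 6.95 and 5.66 CPM for each.

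Summed over all 10 members, the classes ranked NK/ILC1 (2992 and 3092 CPM), ILC3 (1349 and 1417 CPM), CD7 innate-like (1270 and 1352 CPM), γδ T (1065 and 1033 CPM), CD8 T (528 and 617 CPM), ILC2 (182 and 202 CPM) and Treg (57.2 and 67.0 CPM). Activating receptors gave 50.1% and 48.0% of the activating and inhibitory UMIs in NK/ILC1 and 50.5% and 50.9% in CD8 T. In ILC3 the share was 37.9% and 38.7%, in ILC2 37.6% and 39.3%, and in γδ T 65.2% and 59.6%. Only in γδ T did the activating sum exceed the inhibitory sum beyond counting error in both libraries, by 0.90 (0.55 to 1.27) and 0.56 (0.26 to 0.87) on the log2 scale. This held in the γδ T cells without both Cd7 and Fcer1g, at 1.44 (0.93 to 2.02) and 0.61 (0.22 to 1.02). In those with both, the intervals held 0, at 0.37 (-0.13 to 0.88) and 0.47 (-0.004 to 0.96). In Treg the share rested on 54 and 74 UMIs, and in ILC2 on 133 and 89. The inhibitory Klrg1, which is not a member and lay outside these sums, had 132 and 92 UMIs in ILC2, so the ILC2 share holds for the members alone.

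The make-up of the inhibitory sums was not alike. Other Ly49 genes lay outside these sums, such as Klra9 with 49 and 30 UMIs and Klra3 with 24 and 10 UMIs in NK/ILC1. In NK/ILC1 the listed Ly49 genes gave 12.3% and 5.59% of the inhibitory UMIs of the members, and in CD7 innate-like cells 81.8% and 79.4%. In γδ T they gave 44.6% and 12.5%, in CD8 T 21.3% and 11.6%, and in ILC3 none, where Klrb1b stood nearly alone.

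**Figure D2:**
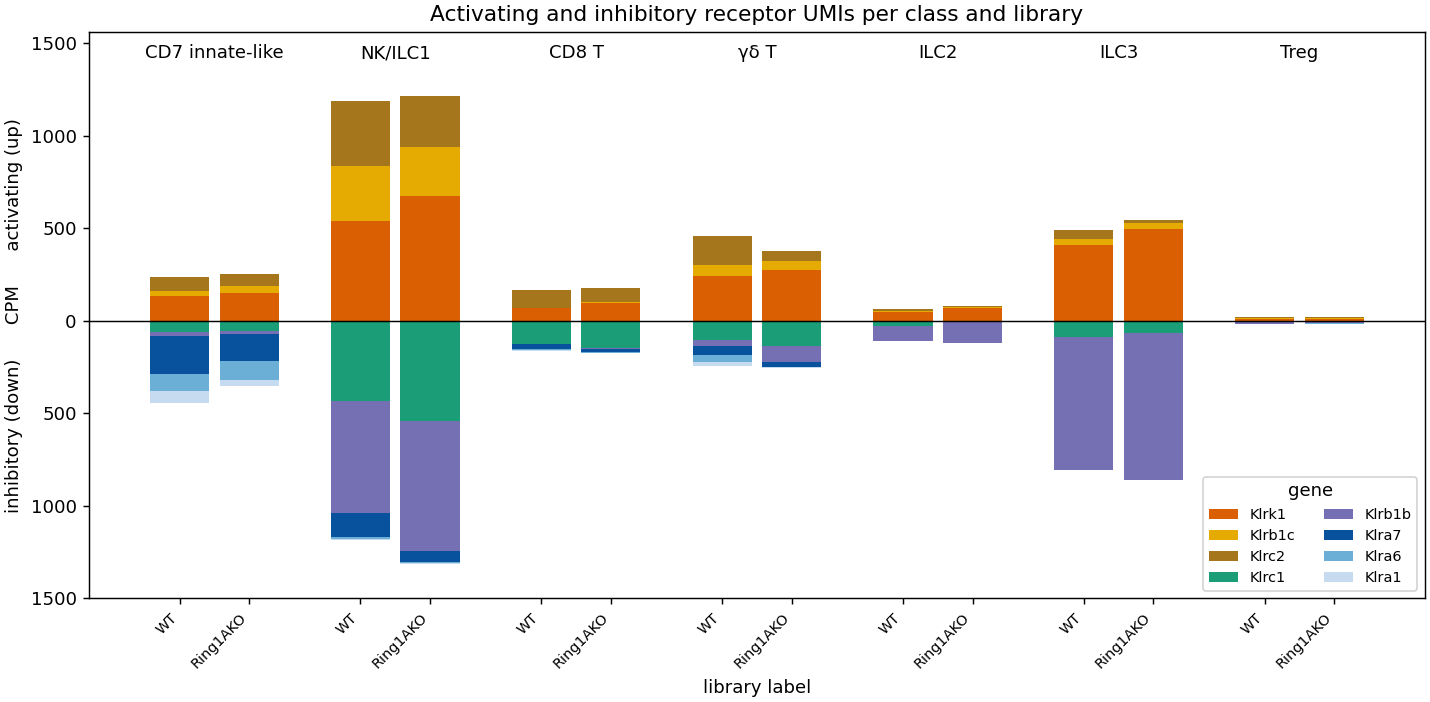
Summed CPM of the activating members (stacked upward) and of the inhibitory members (stacked downward) in each class, with the libraries labelled WT and Ring1AKO side by side and each gene in its own colour. The inhibitory stack of CD7 innate-like cells is mostly Ly49 (81.8% and 79.4% of UMIs), and that of ILC3 is mostly Klrb1b.

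Of the 7 classes, only in CD7 innate-like cells did the interval of the difference in this balance between the libraries leave out 0. The activating share was 35.1% (32.4 to 37.8) for WT and 41.7% (39.1 to 44.4) for Ring1AKO. The activating sum was 239 and 252 CPM, while the inhibitory sum was 442 CPM and 353 CPM, a log2 ratio of -0.33 (-0.47 to -0.18). Both sums held only the members named at the start. Of the Ly49 genes in neither sum, Klra5 had 57 and 154 UMIs in this class and Klra9 had 16 and 67, while Klra3 had 55 and 37. The balance with these genes counted was not tested, and the difference may depend on which Ly49 genes were listed. For the members alone, the difference of the log2 balance was 0.40 (0.17 to 0.63). It was absent when every cell was thinned to 1000 UMIs, which gave a log2 balance of -0.61 and -0.65, and it was smaller when classes were taken from clusters (-0.63 and -0.45). Thinned sums hold fewer UMIs, and the mean over cells, which also weighs cells alike, gave -0.79 and -0.48. Cells of this class also differed in summed B cell markers (16.6 and 49.8 CPM, 4 of 4 markers found in each) and cycling markers (117 and 40.5 CPM), whose part in it was not tested. The class also lay in partly different clusters. Beside cluster 26, cluster 25 held 16.5% of its cells in the library labelled WT and cluster 36 held 17.2% in that labelled Ring1AKO, so a shift in the make-up of the class and a change within its cells cannot be told apart.

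Nearly every NK/ILC1 cell carried both kinds of receptor. At least 1 activating and 1 inhibitory member were found in 94.3% and 95.6% of NK/ILC1 cells, against 33.1% and 31.7% of CD7 innate-like cells, 40.6% and 34.9% of γδ T and 25.6% and 27.4% of CD8 T. The median number of members with a UMI was 5 per NK/ILC1 cell, 2 per CD7 innate-like or γδ T cell and 1 per CD8 T cell, the same in both libraries. When thinned to 1000 UMIs the shares with both kinds were 50.8% and 53.3% in NK/ILC1 and 9.06% and 6.21% in CD7 innate-like cells. NK/ILC1 thus stayed above the T cell classes at equal depth.

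CD94 was mostly found without its NKG2 partners in CD7 innate-like cells. Of their cells with Klrd1, 70.8% and 71.5% had no UMI of Klrc1 or Klrc2, against 15.1% and 14.5% in NK/ILC1. In the other direction, 92.6% and 92.3% of the CD7 innate-like cells with Klrc1 or Klrc2 also had Klrd1, against 216 of 254 and 295 of 338 cells of the class as a whole. In NK/ILC1 the shares were 71.6% and 67.9%, near the 70.5% and 68.9% of all its cells, in CD8 T 63.6% and 60.2% against 49.8% and 48.5%, and in γδ T 61.5% and 53.3% against 51.6% and 50.9%. Both Klrc1 and Klrc2 were found in 68 and 49 NK/ILC1 cells, while 11 and 12 had Klrc1 alone and 23 and 17 had Klrc2 alone. At these depths a missing UMI does not show that a chain was absent.

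Cells differed in how many of the listed Ly49 genes were found in them. In CD7 innate-like cells 50.8% and 49.7% had a UMI of Klra1, Klra6 or Klra7, and 26.0% and 19.8% had 2 or 3 of them. In NK/ILC1 22.1% and 14.4% had any, and 3 cells of each library had 2. Thinned to 1000 UMIs, any of the 3 genes was found in 22.8% of CD7 innate-like cells in both libraries and in 10.7% and 4.44% of NK/ILC1. Independent detection of the 3 genes in CD7 innate-like cells at full depth would give 2 or 3 of them in 17.9% and 13.9% of cells. Thinned, 2.76% and 3.55% had 2 or 3, against 1.75% and 2.05% if independent. The part of cell depth in this was not tested.

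**Figure D3:**
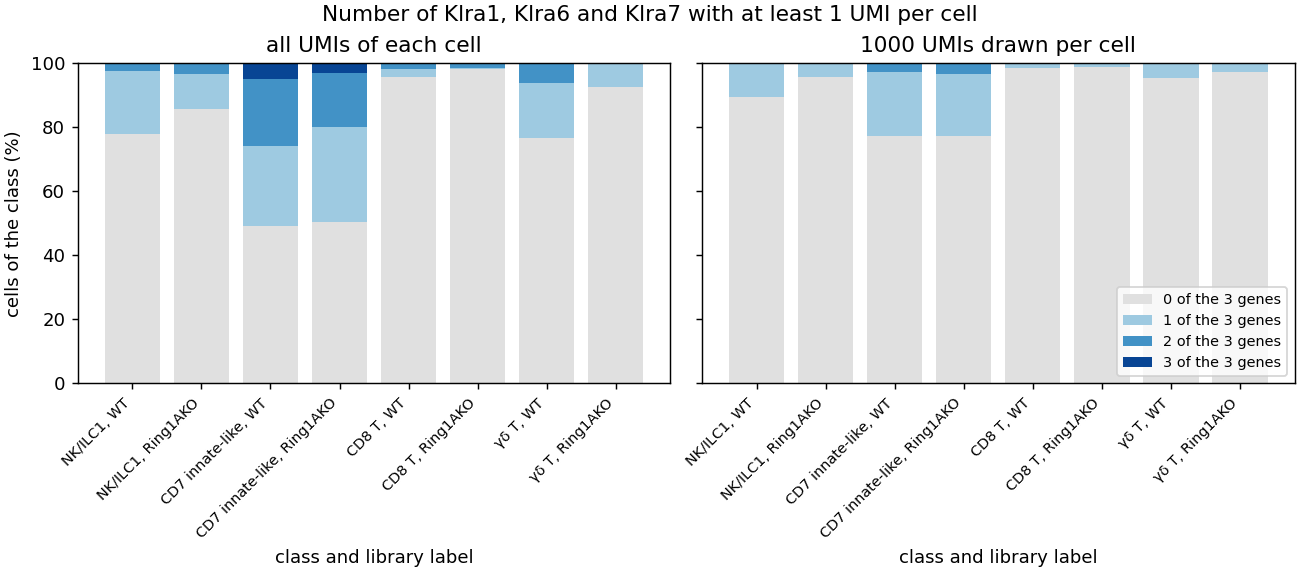
Percent of cells with a UMI of 0, 1, 2 or 3 of Klra1, Klra6 and Klra7 in 4 classes, stacked to 100% for each library, at full depth and with each cell thinned to 1000 UMIs. In CD7 innate-like cells 50.8% and 49.7% have any of the genes at full depth and 22.8% of each library when thinned, above the other 3 classes in both panels.

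The level of each member was next set between the libraries. Of 70 pairs of a member and a class, 40 had at least 30 UMIs over both libraries. In 9 of these the ratio was higher in the library labelled Ring1AKO beyond counting error, in 7 it was lower, and in 24 the interval held 0. By class these were 3 of 10 members in CD7 innate-like cells, where 28.7% of all genes with 30 UMIs lay beyond counting error, 5 of 8 in NK/ILC1 (22% of all genes), 3 of 6 in CD8 T (28%) and 4 of 8 in γδ T (20.6%). They were 0 of 2 in ILC2 (24.8%), 1 of 5 in ILC3 (24.6%) and 0 of 1 in Treg (39.7%). Genes with more UMIs pass this limit on smaller differences, and the counts of members are small. Past 2-fold lay 5 pairs, 2 higher and 3 lower. In the same way 4.52% of all genes with 30 UMIs were past 2-fold in CD7 innate-like cells, 5.81% in NK/ILC1, 5.12% in CD8 T, 6.54% in γδ T, 8.97% in ILC2, 8.31% in ILC3 and 8.86% in Treg. Of the members with enough UMIs this held for 0 of 10 in CD7 innate-like cells, 1 of 8 in NK/ILC1, 1 of 6 in CD8 T, 2 of 8 in γδ T, 0 of 2 in ILC2, 1 of 5 in ILC3 and 0 of 1 in Treg, counts too small to set apart from those shares.

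Summed over the 10 members, the ratio was 0.09 (0.01 to 0.17) in CD7 innate-like cells, 0.05 (-0.04 to 0.14) in NK/ILC1 and 0.22 (0.10 to 0.35) in CD8 T. It was -0.04 (-0.22 to 0.14) in γδ T and 0.07 (-0.09 to 0.23) in ILC3. The median ratio of all genes lay between -0.13 and -0.03 in the 7 classes. Members thus differed more from each other than their sum differed between the libraries, and in CD8 T the sum turned to -0.17 when classes were taken from clusters.

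In CD7 innate-like cells Klrd1 was higher in the library labelled Ring1AKO, by 0.35 (0.23 to 0.48), and Klra1 and Klra7 were lower, by -0.84 (-1.29 to -0.42) and -0.52 (-0.74 to -0.30). Klra6, which lies in the same stretch of Ly49 genes, had a ratio of 0.12 (-0.17 to 0.42). The share of cells with Klra1 was 17.3% and 8.88%. Thinning to 1000 UMIs left the ratios of Klrd1 and Klra1 at 0.11 and -0.23, and that of Klra7 at -0.44.

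In NK/ILC1 Klra7 was 132 and 61.0 CPM, a ratio of -1.09 (-1.73 to -0.54). Its 96 and 34 UMIs came from 24 and 12 cells, and without the 5 cells of each library with most member UMIs the ratio was -0.94, and thinned to 1000 UMIs, with 13 and 3 cells left that had a UMI, it was -2.05. Klrc1 (0.33, 0.09 to 0.56), Klrk1 (0.32, 0.11 to 0.53) and Klrb1b (0.21, 0.01 to 0.41) were higher in the library labelled Ring1AKO, and Klrc2 was lower (-0.35, -0.66 to -0.06). Thinned, these ratios were 0.15, 0.02, 0.34 and -0.77 in the same order. Thus 1 activating and 2 inhibitory members were higher and 1 of each kind lower, and the balance differed by -0.12 (-0.32 to 0.08). Other genes moved in this class too. The summed cycling markers were 211 and 32.3 CPM, the class's own 5 markers 1993 and 1479 CPM and B cell markers 6.90 and 26.9 CPM (2 and 4 of 4 found). Cd7 was found in 46.7% and 70.0% of cells and Eomes in 32.8% and 23.3%, and the part of these in the result was not tested.

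In CD8 T Klre1 was 2.67-fold higher in the library labelled Ring1AKO, a ratio of 1.42 (0.88 to 2.02), with 38 and 94 UMIs in 19 and 29 cells. Klrk1 was higher by 0.45 (0.12 to 0.79) and Klrd1 by 0.22 (0.01 to 0.44). With classes taken from clusters the ratio of Klre1 was 0.54, that of Klrk1 -0.30 and that of Klrd1 -0.10. The summed cycling markers were 248 and 116 CPM.

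In γδ T Klrc2 was lower, by -1.48 (-2.16 to -0.88), and Klre1 was lower, by -0.84 (-1.62 to -0.09). Klrb1b was higher by 1.27 (0.46 to 2.31) and Klrd1 by 0.34 (0.01 to 0.69). Cells with and without both Cd7 and Fcer1g carried different members. The Klrb1b UMIs lay almost wholly in the cells without both, with 57.5 and 148 CPM there and 0 and 7.59 CPM in the others, while Klrd1 was 501 and 702 CPM in the cells with both and 123 and 78.4 CPM in the others. Klrc2 was lower in each of these parts, at 165 and 75.9 CPM with both and 152 and 39.2 CPM without. The balance differed by -0.83 (-1.47 to -0.18) in the cells without both, an interval that left out 0, and by 0.10 (-0.56 to 0.77) in those with both. The ratio of Klrc2 was 0.01 when cells were thinned to 1000 UMIs, where only 4 and 8 cells had a UMI of it. With classes taken from clusters the ratio of Klrb1b was 0.26 and that of Klre1 was 0.83. The γδ T class from clusters was cluster 35 alone, of which 46.0% were gated as γδ T, and cluster 26 was taken as CD7 innate-like.

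Klrc2 was also lower in ILC3, by -1.50 (-2.89 to -0.41), from 22 and 9 UMIs. NK/ILC1 markers moved with it, at 612 and 351 CPM in sum (4 of 5 found in each library), with Tbx21 in 15.4% and 1.35% of ILC3 cells and 10.8% and 2.70% of the class in cluster 18, which held most NK/ILC1 cells, and their part was not tested. That value was -0.71 without the 5 cells of each library with most member UMIs and -0.004 with classes taken from clusters. Klrb1b and Klrk1, which held most member UMIs of ILC3, had ratios of 0.15 (-0.07 to 0.37) and 0.28 (-0.003 to 0.56). In ILC2 Klrb1b (0.54, -0.03 to 1.10) and Klrk1 (0.60, -0.14 to 1.33), and in Treg Klrd1 (0.63, -0.11 to 1.48), were the members with enough UMIs, and each interval held 0.

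**Figure D4:**
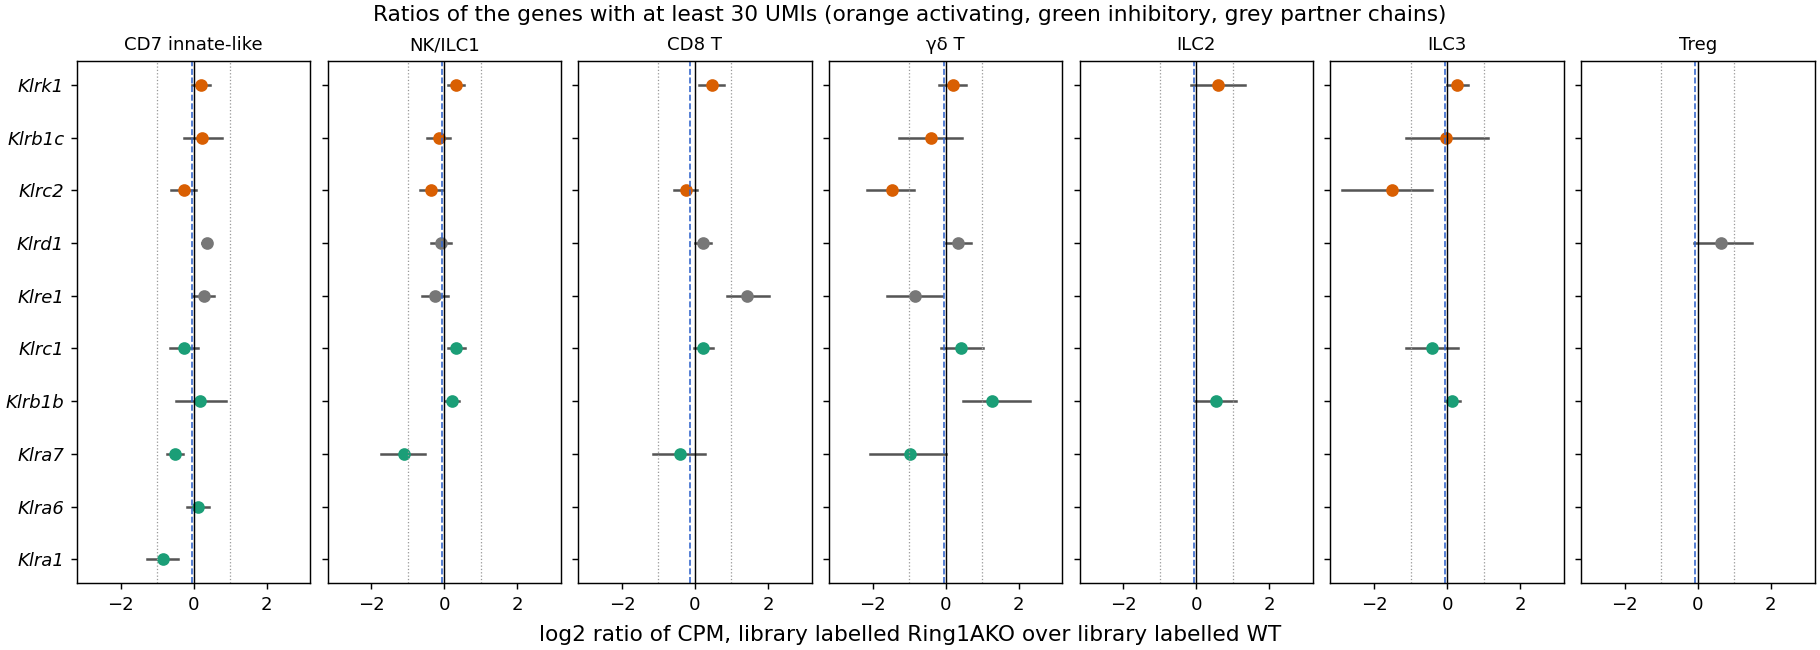
Log2 ratio of Ring1AKO over WT for each member with at least 30 UMIs, in 7 panels by class, with exact 95% intervals as bars; orange marks activating, green inhibitory and grey partner genes, the dashed line the median of all genes and the dotted lines 2-fold. Klre1 in CD8 T (1.42) and Klrb1b in γδ T (1.27) lie past 2-fold to the right, and Klra7 in NK/ILC1 (-1.09) and Klrc2 in γδ T (-1.48) and ILC3 (-1.50) to the left.

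The other 17 Klr genes showed which relatives the same cells carried. In CD7 innate-like cells 8 of them had at least 30 UMIs, and 2 were past 2-fold higher in the library labelled Ring1AKO, Klra5 (31.6 and 67.8 CPM, ratio 1.08) and Klra9 (8.88 and 29.5 CPM, ratio 1.67). Klrh1 was 51.6 and 92.9 CPM there, a ratio of 0.84 (0.49 to 1.22), and Klra3 was 30.5 and 16.3 CPM, a ratio of -0.89 (-1.55 to -0.28). The Ly49 genes of this class therefore lay on both sides of 0. In NK/ILC1 8 had enough UMIs and 2 were past 2-fold lower, Klra4 (Ly49D, activating; 95.2 and 41.3 CPM) and Klrg1 (inhibitory; 34.5 and 8.98 CPM), while Klra8 (Ly49H, activating) was 109 and 95.2 CPM. Of all genes with 30 UMIs, 4.52% were past 2-fold in CD7 innate-like cells and 5.81% in NK/ILC1. The numbers of other Klr genes with enough UMIs are too small to set apart from those shares. Klra9, Klra10 and Klra3 share 8.52% to 15.6% of the 90-base words at their ends, so their counts are uncertain. Klrg1 was 174 and 206 CPM in ILC2, where the 10 members together had 182 and 202 CPM, and 213 and 128 CPM in Treg, where they had 57.2 and 67.0 CPM.

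Of the adaptors that carry the signals of these receptors, Hcst was spread more evenly over the classes than the receptors were. Tyrobp was highest in NK/ILC1, as were Klrk1, Klrb1c and Klrc2. Hcst, for Klrk1, lay between 254 and 868 CPM in all 7 classes of both libraries, and was lowest in that range in Treg of the library labelled Ring1AKO. Tyrobp, through which Klrk1 also signals, was 1336 and 1253 CPM in NK/ILC1, 315 and 403 CPM in CD7 innate-like cells and 211 and 183 CPM in γδ T. It was 178 and 96.3 CPM in ILC3, 43.4 and 4.48 CPM in ILC2, 30.5 and 35.0 CPM in CD8 T and 26.9 and 34.3 CPM in Treg. Of the 7 adaptors and phosphatases, 7 had enough UMIs in NK/ILC1 and in CD7 innate-like cells and none was past 2-fold in either, nor in CD8 T, γδ T, ILC3 or Treg. In ILC2 2 of 6 were past 2-fold lower in the library labelled Ring1AKO, Tyrobp (33 and 2 UMIs, ratio -2.73, -6.38 to -1.31) and Ptpn11 (32 and 6 UMIs, ratio -1.47, -3.195 to -0.37). Outside ILC2, Fcer1g (0.52) and Tyrobp (0.35) in CD7 innate-like cells were higher beyond counting error. So were Fcer1g (0.88) and Cd247 (0.50) in γδ T, Hcst in CD8 T (0.28) and Cd247 in Treg (0.36). Lower beyond counting error were Hcst in NK/ILC1 (-0.29), Tyrobp in ILC3 (-0.88), and Hcst (-0.39) and Ptpn11 (-0.51) in Treg. Of all genes with 30 UMIs, 28.7% lay beyond counting error in CD7 innate-like cells, 22% in NK/ILC1 and 28% in CD8 T. The share was 20.6% in γδ T, 24.6% in ILC3 and 39.7% in Treg. Past 2-fold in ILC2 lay 8.97% of all genes. The numbers of adaptors and phosphatases are too small to set apart from those shares. Fcer1g is part of the gate of CD7 innate-like cells.

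Ligands were measured in the same classes. H2-T23, which encodes Qa-1, lay between 247 and 420 CPM in the 7 classes of both libraries. Clec2d, the ligand of Klrb1b, was lower in the library labelled Ring1AKO in NK/ILC1 (272 and 156 CPM, ratio -0.79), ILC3 (174 and 96.3 CPM, -0.84), γδ T (203 and 139 CPM, -0.54), Treg (266 and 188 CPM, -0.50) and CD7 innate-like cells (148 and 114 CPM, -0.38), while in CD8 T it was 181 and 179 CPM. H2-D1, a ligand of Ly49 receptors, was 1803 and 2380 CPM in CD7 innate-like cells. The NKG2D ligand Ulbp1 (Mult1) was 18.3 and 7.93 CPM in CD7 innate-like cells.

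Effector genes went different ways in the classes that carry these receptors. In NK/ILC1 6 of 7 were lower in the library labelled Ring1AKO beyond counting error and 1 was higher, where 22% of all genes passed in either direction. These genes hold many UMIs, so that small differences pass. Their median ratio was -0.64 beside -0.07 for all genes. Ifng was 850 and 338 CPM, Xcl1 2295 and 1104 CPM and Gzmb, the exception, 613 and 941 CPM. In CD7 innate-like cells Gzma was 2090 and 3933 CPM, Gzmb 412 and 1113 CPM and Ifng 203 and 44.0 CPM. Of 9 other NK receptors, 7 had enough UMIs in NK/ILC1, with a median ratio of -0.06 beside -0.07 for all genes. The ratio was above 0 for 3 of the 7. Lower beyond counting error were 2, Lilrb4a (-0.31, -0.59 to -0.04) and Ncr1, and 0 were higher. Ncr1 in NK/ILC1 was 277 and 167 CPM, a ratio of -0.72 (-1.10 to -0.37). Ncr1 and Prf1, 1 of the 6 lower effector genes, are markers of the NK/ILC1 gate, so their levels depend in part on that gate.

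Over the 14 levels of 7 classes in 2 libraries, the members most like each other were Klra1 and Klra6 (Pearson r = 0.97), followed by Klrc1 and Klrc2 (0.93) and Klrd1 and Klre1 (0.93). The lowest values were those of Klrb1b with Klra6 (-0.30), Klra1 (-0.23), Klrd1 (-0.08) and Klra7 (-0.07). Among 6723 genes with at least 200 UMIs, Klrd1 was most like Sult2b1, Chsy1 and Xcl1 (r = 0.96 to 0.94), Klrb1c most like Irf8, Gpc1 and the adaptor gene Tyrobp (0.97 to 0.95), and Klrc2 and Klre1 both like Il12rb2 and the transcription factor gene Tbx21 (0.94 to 0.97). Klrb1b was most like Nfe2l2 (0.96) and Klrk1 most like Btg2 (0.95). Tbx21 is a marker of the NK/ILC1 gate and had to be absent in the ILC2 gate, so its pattern is in part set by the gates. The 14 points share libraries, depth and cells of like origin, so these are descriptions of pattern, with no test.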

How the data were processed

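CD45+ 7-AAD- colonic lamina propria cells of DSS-treated mice were measured as 1 library per genotype with 10× Genomics 3′ chemistry. The authors deposited raw UMI counts per gene and barcode, not normalized and not filtered for cells. The file header names Cell Ranger 4, the submitters' processing notes list Cell Ranger 6.0.2, Seurat and mm39, and the paper names another version of Cell Ranger and mm10, so the build was not settled and the coordinates printed are those of the gene IDs in GENCODE vM21. Each matrix was read as 1 sample, with 74414511 and 81862096 UMIs over all barcodes.

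Barcodes were kept and gated in Python 3.11.15 with NumPy 2.4.6, SciPy 1.17.1 and pandas 2.3.3, and clustered with Scanpy 1.11.5 as an alternative. Doublets were kept, and 1 alternative left out the 5% of barcodes with the highest Scrublet scores. UMIs were summed per class and library, with exact Poisson intervals for CPM, exact conditional intervals for ratios and Clopper-Pearson intervals for shares. Only the ratios, with their intervals and the 2-fold call, were checked on simulated data. These were drawn as Poisson sums, so the check did not cover UMIs that lie in few cells. Of shares at full depth, thinned values (1000 UMIs per cell) are given where they bear on a comparison. Likeness used log2(CPM + 10). The members and gene lists were chosen with earlier results of these data known. All 10 members are named in every class, beside the other Klr genes, adaptors, ligands, NK receptors and effector genes of fixed lists. The gate for CD7 innate-like cells was planned without Cd3 and was changed, like that for ILC3, after the markers of these cells were seen. Alternatives changed filters, gates, scaling, depth and cells, 10 planned and 4 added after the data were seen.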

Additional observations from a re-analysis of the deposited data

Results flagged for a closer look

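Klre1 went opposite ways in 2 classes. Its log2 ratio of Ring1AKO over WT was 1.42 in CD8 T and -0.84 in γδ T, each beyond counting error, and the difference was not tested. With classes taken from clusters the ratio was 0.54 in CD8 T and 0.83 in γδ T. That γδ T class was cluster 35 alone (32 and 92 cells), of which 46.0% were gated as γδ T. The opposite directions were not kept there, but the γδ T cells compared were largely different ones.

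Members were also found outside the 7 classes, in cells gated on genes of dendritic cells. These groups were gated on 1 gene each and had median UMIs between 9816 and 26175, above the 4592 to 6783.5 of the 7 classes. In the 39 and 19 Siglech-gated cells, Klrd1 was 367 CPM in the library labelled WT and 293 CPM in that labelled Ring1AKO, found in 33 and 17 cells, with no UMI of Klrc1 or Klrc2. In the 65 and 58 Cd209a-gated cells, Klrd1 was 291 and 324 CPM, Klrb1b 189 and 163 CPM and Klrk1 125 and 84.4 CPM. In the 52 and 40 Clec9a-gated cells, Klrk1 was 131 and 144 CPM and Klrb1b 55.5 and 76.6 CPM. B cells of the same libraries had between 4.18 and 7.37 CPM of these 3 genes. Klrc1 had 0 UMIs in all 3 groups of both libraries, which at 3 counts allows up to 15.999 CPM in the smallest.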

How the results depend on the processing

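No paired analysis was possible because there was only 1 library of each genotype. For the sum of the 10 members per class, 69 of 80 values stayed within the counting interval of the reported one. For the log2 balance of activating over inhibitory members, 123 of 146 did. The summed log2 ratio turned from 0.22 to -0.17 in CD8 T when classes were taken from clusters, which also moved γδ T to 0.32, ILC3 to 0.27 and Treg to 0.67. Cells thinned to 1000 UMIs gave 0.00905 in CD7 innate-like cells, 0.078 in CD8 T and 0.73 in ILC2. Gates with higher UMI minimums gave 0.48 in CD8 T and -0.67 in Treg, the mean over cells gave 0.70 in Treg, and the gate for CD7 innate-like cells without Cd3 gave 0.68.

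The balance from clusters was -0.63 in CD7 innate-like cells, 0.27 in CD8 T, -1.21 in ILC3 and -1.44 in Treg of the library labelled WT, and 1.03 in γδ T, -0.93 in ILC3 and -0.87 in Treg of that labelled Ring1AKO. Thinned, it was -0.61 in CD7 innate-like cells and -0.42 in CD8 T of the library labelled WT, and -0.65 in CD7 innate-like cells, -0.36 in NK/ILC1, 0.48 in CD8 T and -1.0 in ILC3 of that labelled Ring1AKO. Higher gate minimums gave 0.36 in CD8 T of the library labelled WT and -1.26 in Treg of that labelled Ring1AKO. Without the 5 cells with most member UMIs it was 0.28 in CD8 T, -1.37 in ILC2 and -3.17 in Treg of the library labelled WT and -0.53 in Treg of that labelled Ring1AKO. The gate without Cd3 gave -0.34 and -0.0184 for CD7 innate-like cells. In γδ T of the library labelled WT it was 0.37 with both Cd7 and Fcer1g and 1.44 without. The cause of these shifts was not tested.

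Of single members, 423 of 466 alternative ratios stayed within the interval. With classes from clusters, Klre1 in γδ T (0.83) and Klrk1 (-0.30) and Klrd1 (-0.10) in CD8 T changed sign. The γδ T class from clusters was cluster 35 alone and left out the gated γδ T cells of cluster 26. Klrc2 in γδ T went from -1.48 to 0.00905 when thinned, where only 4 and 8 cells had a UMI of it, too few for a comparison. With 1 library per group, depth sets only the counting error, and pairs under 30 UMIs carry no comparison.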

Other observations

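Klra2, a Ly49 gene outside the 10 members, was found mainly outside the 7 classes. In the 927 and 409 cells gated on Csf1r and other macrophage or monocyte genes it was 171 CPM in the library labelled WT and 91.8 CPM in that labelled Ring1AKO. The log2 ratio was -0.89 (-1.09 to -0.70), with a UMI in 65.4% and 34.7% of cells at median depths of 9607 and 6751 UMIs. Klrk1 was 30.1 and 10.3 CPM in these cells.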
